A study of Rattus norvegicus with 11 samples.

Results

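Gene expression in the prefrontal cortex was compared between adult rats separated from their dams as pups and adult rats reared without disturbance, all of them given saline. The comparison used 7 of the 11 rats of the series, chosen by the group and treatment in their labels: 4 maternally separated rats (MS, replicates 2 to 5) and 3 undisturbed rats (Control, replicates 1 to 3). MS pups were taken from the dam for 3 hours daily, starting on postnatal day 2 and ending on postnatal day 14, whereas Control litters were not disturbed. Both groups were weaned at postnatal day 30, received a saline injection as adults of about postnatal day 60, and were killed 2 hours later. The other 4 rats, undisturbed animals given the serotonin receptor agonist DOI at 8 mg/kg, were left out of the comparison and served only in an alternative fit described below. The labels name no strain, sex or litter of origin, so rats that shared a litter cannot be told apart from unrelated ones.

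Maternal separation is a rodent model of early-life stress. It interrupts maternal care while the stress hormone axis and the cortex are still maturing, and it is widely used because altered stress and anxiety responses can persist into adulthood. The prefrontal cortex exerts top-down control over emotional behaviour and stress responses, matures late, and receives a dense serotonergic input. RNA was taken from the dissected region as a whole, which holds neurons, glia and vascular cells, so fewer cells of a type and less RNA per cell cannot be told apart in the values below.

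Each rat was hybridized to 1 array with a single dye (Cy3), and the table holds 15207 probes. The probes carry custom identifiers, of which 0 are paired with a gene in the reference tables used here. Accordingly, no gene, pathway or cell type marker is named, and neither the labelled tissue nor a gene list could be checked against markers. A level is the log2 of a probe's intensity over the 75th percentile of its array, so 0 is a probe as bright as that percentile. Intensities below 0.05 of the percentile were raised to this floor, a level of -4.32, and 3218 probes that never exceeded it were not tested. That left 11989 probes tested, of which 8837 were above the floor on all 7 arrays.

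The arrays differed in overall brightness. The 75th percentile of intensity was 125, 184 and 177 on the Control replicate 1, 2 and 3 arrays. On the MS arrays it was 194 for replicate 2, 75 for replicate 3, 99.5 for replicate 4 and 49.6 for replicate 5, so 3 of the 4 MS arrays were dimmer than any Control array. Lowest intensities were alike on all 7 arrays, between 1.53 and 1.98, so the lowest values lay nearer to the percentile, and to the floor, on the dimmer arrays. The part of this difference in the results on weak probes was not tested.

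The arrays also fell into 2 sets that cut across the groups. Along the first principal component of the levels after removal of group means (38.5% of that variation), Control replicates 2 and 3 and MS replicates 2 and 4 lay on one side, and Control replicate 1 with MS replicates 3 and 5 on the other. Of the probes tested, 1203 were higher in all 4 arrays of the first set than in all 3 of the second, and 1346 were lower. Pairs of arrays from the same set differed by a root mean square of 0.53 log2 on average (range 0.41 to 0.64, 9 pairs), and pairs from different sets by 0.63 (range 0.57 to 0.71, 12 pairs). The sets were read from the intensities alone, since neither slide nor scan date nor litter is labelled. Control replicate 1 was also deposited in another form. On its array 100% of the values had at most 2 decimals, against 0.68% to 2.13% on the other arrays. The part of this in the results was not tested. Because the sets were chosen on these levels, larger counts and distances between them than between the groups are no evidence for them. Values within the sets are given beside the distances, the counts of probes without overlap, the share at the floor, the 2-fold differences and the named probes.

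**Figure D1:**
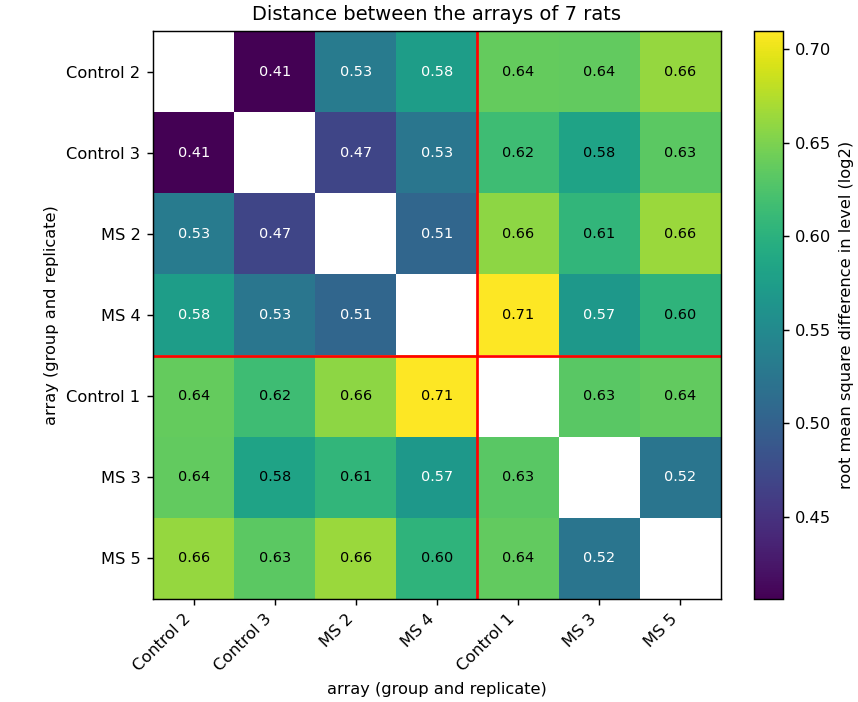
Root mean square difference in level (log2, over 11989 probes) between each pair of the 7 arrays; red lines part the set of 4 arrays from the set of 3. The closest pair is Control replicates 2 and 3 (0.41), and the farthest is Control replicate 1 and MS replicate 4 (0.71).

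Distances between MS and Control rats were set against those within the groups, pooled and by set. The mean distance was 0.60 log2 between an MS and a Control rat (range 0.47 to 0.71, 12 pairs), 0.58 between 2 MS rats (range 0.51 to 0.66, 6 pairs) and 0.55 between 2 Control rats (range 0.41 to 0.64, 3 pairs). Among pairs from the same set, it was 0.56 between the groups (range 0.47 to 0.64, 6 pairs) and 0.48 within a group (range 0.41 to 0.52, 3 pairs). Among pairs from different sets, it was 0.65 between the groups (6 pairs) and 0.62 within a group (6 pairs). For MS replicate 2 the nearest array was that of Control replicate 3 (0.47), whereas MS replicates 3 and 5 were nearest to each other (0.52) and MS replicate 4 was nearest to MS replicate 2 (0.51). The MS rats were not shown to vary more among themselves than the Control rats: the within-group distances differed by 0.0254 log2 (two-sided exact permutation test over 35 arrangements, p = 0.743, and 0.743 after Benjamini-Hochberg adjustment over 2 such tests). The smallest p this test can give with 4 and 3 rats is 0.0571, so it cannot reach 0.05. Without Control replicate 2 or Control replicate 3 this difference turned to -0.0373 and -0.0591. The median SD of a probe between rats was 0.27 log2 in MS (n = 4) and 0.23 in Control (n = 3), and it was larger in MS for 57.6% of probes.

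No probe passed the test between MS and Control. Of 11989 probes, 0 (0%) had a Benjamini-Hochberg adjusted p under 0.05 in limma with the 7 arrays, and the lowest adjusted p was 0.0585. An unadjusted p under 0.05 was found for 1518 probes, comprising 619 higher in MS (5.16% of the probes tested) and 899 lower (7.5%). If no probe differed, 599 would be found on average over both directions together. The split by direction depended on the scaling. With each array divided by its median, 1187 of the same probes were higher and 540 lower at that unadjusted p. After quantile normalization the counts were 519 and 692, and with deposited values left unscaled 4 and 1674. Adjusted p-values under 0.10 were reached by 4 probes, all lower in MS, with differences of -1.10 to -2.07 log2. All 4 lay in the 2 dimmer quartiles of the probes by mean level, and 3 of them were at the floor on at least 1 array.

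The size of the differences was mostly small. The median difference over the probes tested was 0.03 log2, with quartiles of -0.20 and 0.21. Their 5th and 95th percentiles were -0.65 and 0.50, and 85.6% of the differences were under 0.5 log2 in size. For 8829 probes (73.6%) the 95% interval of the difference, not adjusted for the number of probes, lay wholly within a 2-fold change in either direction. When probes were put in 4 quartiles by mean level, this share was 89.4% in the brightest and 51.7% in the second dimmest quartile. It was 74.1% in the dimmest, where mean levels of -4.32 to -3.46 lay close to the floor, which limits the differences. With deposited values left unscaled, the share was 13.0% over all these probes and 1.07% in the brightest quartile. For 6 probes the interval lay wholly beyond a 2-fold change, 3 higher and 3 lower in MS. Under the main scaling, the intervals therefore stayed within 2-fold for most bright probes but not for many weak ones.

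Both groups' arrays were fully apart for a minority of probes. All 4 MS levels lay above all 3 Control levels for 748 probes (6.24% of those tested), and all 4 lay below for 830 (6.92%). The median difference of group means was 0.40 log2 for the former and -0.61 log2 for the latter. A difference of group means of at least 2-fold was seen for 53 probes higher in MS (0.442%) and 132 lower (1.1%). The arrays did not overlap in 24 of those 53 and in 91 of those 132. Of the same 11989 probes, 2762 were fully higher and 2761 fully lower in MS within the set of 4 arrays (2 against 2). Within the set of 3 (2 against 1) the counts were 4540 and 3639. With so few arrays many probes part by order alone, so these counts are no evidence of a difference between the groups.

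Under the scaling used here, direction followed brightness. In the brightest quartile of the probes, with mean levels above 0.70, 481 of 2997 probes were fully higher in MS and 34 fully lower, and the median difference was 0.17 log2. In the second dimmest quartile 92 of 2997 were fully higher and 351 fully lower, with a median of -0.10. In the dimmest quartile the counts were 13 and 181 of 2998. The median difference of the brightest quartile was 0.12 log2 in the set of 4 arrays and 0.19 in the set of 3, and that of the second dimmest quartile was -0.14 and -0.01. These directions depended on how arrays were scaled. With each array divided by its median in place of the 75th percentile, 1125 of the same probes were fully higher and 487 fully lower, and the third quartile turned from 162 higher and 264 lower to 305 and 150. After quantile normalization, which gives all arrays the same distribution, 542 were fully higher and 678 fully lower, and the brightest quartile held 164 and 114. The excess of higher values among bright probes was thus 16.0% against 1.13% of the quartile under the main scaling, 21.6% against 0.367% under the median and 5.47% against 3.80% under quantile normalization. With deposited values left unscaled, 2 probes were fully higher and 1000 fully lower, and the median of all differences moved from 0.03 to -0.66 log2.

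**Figure D2:**
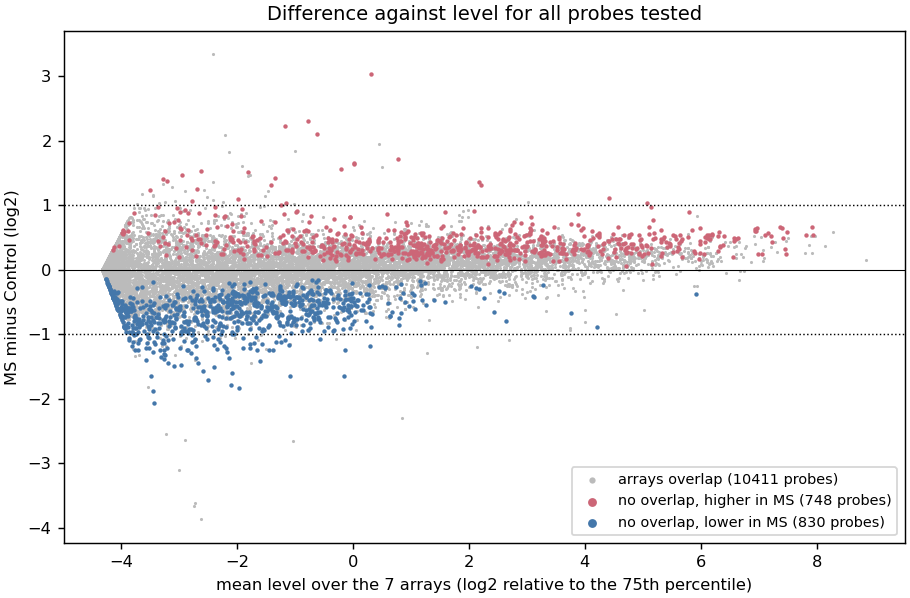
Difference between the MS and Control means (log2) against the mean level over the 7 arrays (log2 relative to the 75th percentile), 1 point per probe; dotted lines mark a 2-fold difference. Probes without overlap lie mostly above 0 at high levels (748 higher in all) and mostly below 0 at low levels (830 lower in all) under scaling by the 75th percentile. Scaling by the median gives 1125 and 487, and the wedge at the left edge comes from the floor.

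**Figure D3:**
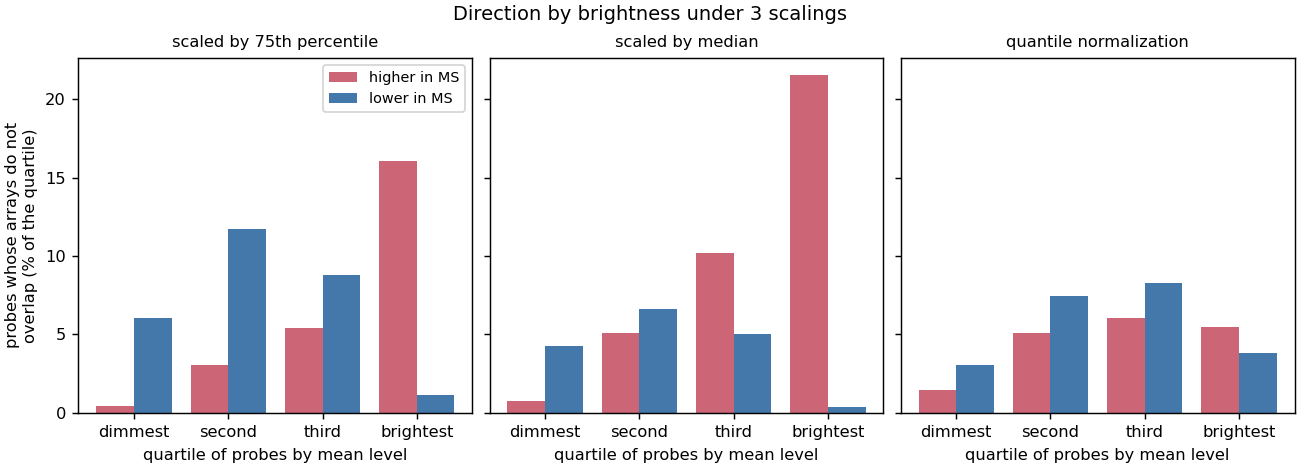
Share of each quartile of the probes (ordered by mean level) in which all MS levels lay above (red) or below (blue) all Control levels, under 3 scalings of the arrays. The brightest quartile goes from 16.0% higher and 1.13% lower under the 75th percentile to 5.47% and 3.80% under quantile normalization.

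The split of the 2-fold differences also moved with the scaling. The 53 higher and 132 lower probes became 73 and 92 with the median, 76 and 100 with quantile normalization, and 10 and 2107 without scaling. They lay mainly among weak probes: the second dimmest quartile held 26 of the higher and 87 of the lower ones, whereas the brightest quartile held 6 and 4. Among the 100 brightest probes of single arrays, an MS and a Control rat shared 81.9 on average, 2 Control rats 81.3 and 2 MS rats 82.8. By group means, 83 of the 100 brightest in Control were also among the 100 brightest in MS. Of those 100, 0 differed 2-fold, with differences from -0.38 to 0.66 log2 and a median of 0.27, while 32 were fully higher and 1 fully lower in MS under the main scaling. Of the 1000 brightest in Control, 3 differed 2-fold, 204 were fully higher and 7 fully lower, also under the main scaling. Over all probes tested, 6.24% were fully higher and 6.92% fully lower under that scaling. In the brightest quartile it was 16.0% and 1.13%, and 5.47% and 3.80% after quantile normalization.

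The 4 probes named here had the lowest p in each direction among probes whose arrays did not overlap. All 4 were weak, with levels below -2 on all arrays. RN_GT_115104 had levels of -2.47, -2.09, -2.11 and -2.58 in MS replicates 2, 3, 4 and 5, and of -3.60, -3.69 and -4.04 in Control replicates 1, 2 and 3. All MS rats were above all Control rats, with a gap of 1.03 log2 between the nearest rats. The difference of 1.47 log2 (SE 0.18, 95% interval 1.04 to 1.89) was 2.76-fold, from a mean of -2.31 ± 0.25 (SD, n = 4) in MS and of -3.78 ± 0.23 (SD, n = 3) in Control. Its limma adjusted p was 0.132. As deposited, its intensity was 34.9, 17.6, 23.0 and 8.31 in MS and 10.3, 14.2 and 10.7 in Control, so that before scaling MS replicate 5, on the dimmest array, lay below the Control rats.

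RN_GT_111340 stood at -2.45, -2.60, -3.11 and -2.56 in MS replicates 2 to 5 and at -4.06, -3.88 and the floor in Control replicates 1 to 3. The groups did not overlap, and MS replicate 4 was the lowest of the MS rats. The level was estimated as 2.65-fold higher in MS (log2 1.41, SE 0.20, 95% interval 0.95 to 1.87, limma adjusted p = 0.151). The floor could only make this estimate smaller. Its deposited intensities overlapped between the groups, at 8.39 to 35.5 in MS and 7.52 to 12.4 in Control.

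RN_GT_105721 was at -2.22, -2.72 and -2.19 in Control replicates 1 to 3. In MS it was at the floor in replicates 2 and 4, at -4.32 in replicate 5, just above the floor, and at -4.04 in replicate 3. Every Control rat was above every MS rat by at least 1.33 log2. The level was estimated as 3.66-fold lower in MS (log2 -1.87, SE 0.17, 95% interval -2.27 to -1.48, limma adjusted p = 0.0585). Here too the floor could only make the estimate smaller. The deposited intensities, 2.49 to 7.42 in MS and 26.9 to 38.6 in Control, did not overlap either.

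RN_GT_112643 was at the floor in all 4 MS rats and at -3.03, -3.27 and -3.13 in Control replicates 1 to 3. In MS its level was estimated as 2.27-fold lower (log2 -1.18, SE 0.11, 95% interval -1.43 to -0.93, limma adjusted p = 0.0585), an estimate the floor could only make smaller. With no spread among MS values at the floor, its error rests on the Control rats and on the variance shared across probes. It was tested only because Control values exceeded the floor, and its interval and p take the floor values as measured. The difference was -0.18 log2 with the floor at 0.1 (limma adjusted p = 0.477) and -1.79 with the floor at 0.03 (0.0368). With no floor it was -1.91 (0.121). Deposited intensities of 2.00 to 5.50 in MS and 15.4 to 20.2 in Control were apart before scaling too.

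**Figure D4:**
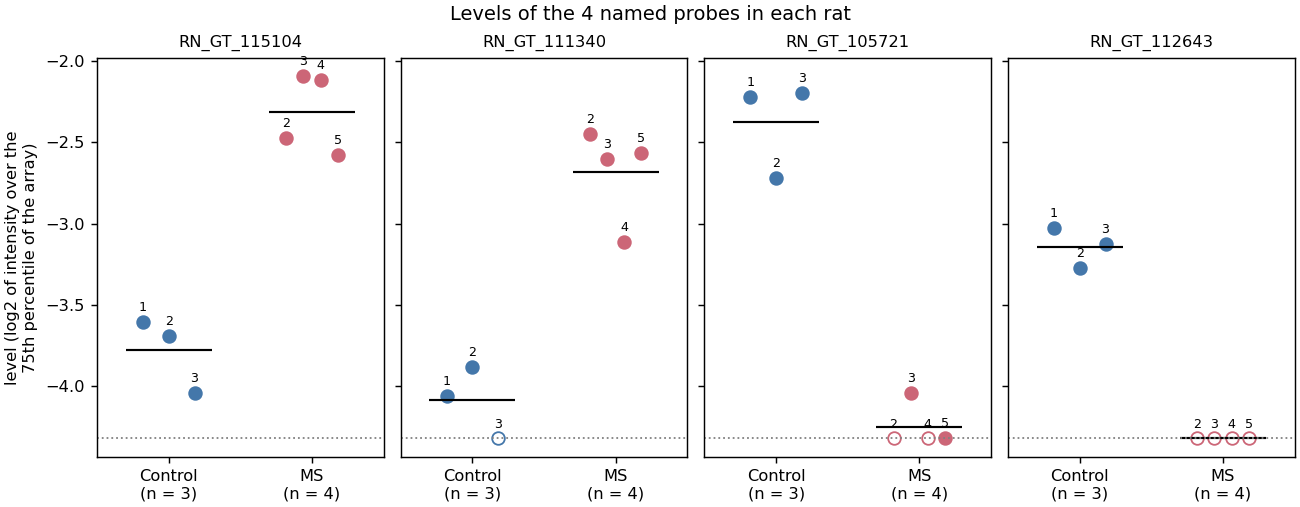
Levels of the 4 named probes in each rat (log2 of intensity over the 75th percentile of the array); numbers are replicates, bars are group means, open circles are values at the floor and the dotted line is the floor. MS and Control rats do not overlap in any of the 4, and the MS rats are at or near the floor for RN_GT_105721 and RN_GT_112643.

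Each of the 4 differences had the same direction within both sets of arrays. This follows from their choice among probes whose arrays did not overlap, and tests nothing. In the set of 4 arrays (2 MS, 2 Control) the differences of RN_GT_115104, RN_GT_111340, RN_GT_105721 and RN_GT_112643 were 1.57, 1.32, -1.87 and -1.12 log2. In the set of 3 (2 MS, 1 Control) they were 1.27, 1.48, -1.96 and -1.29 log2. No probe passed within the set of 4 or with the sets as a block in limma (lowest adjusted p 0.186 and 0.0695). Within the set of 3, 97 probes passed, 42 higher and 55 lower in MS, but that contrast has Control replicate 1 as its lone Control rat, whose own variation is assumed to match that of the other arrays.

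More probes were at the floor throughout MS than throughout Control alone. Of the probes tested, 55 (0.459%) exceeded the floor on all 3 Control arrays but on none of the 4 MS arrays, and 4 (0.0334%) showed the reverse. The 55 were weak in Control, with a median level of -3.85 and a highest of -2.26, and 4 of them differed at least 2-fold. The counts of 55 and 4 became 45 and 6 with the median, 29 and 14 with quantile normalization and 116 and 0 without scaling. Probes at the floor made up 32.8% ± 0.84 (SD, n = 4) of all probes on MS arrays and 30.6% ± 1.56 (SD, n = 3) on Control arrays. The ranges overlapped, at 32.1% to 34.0% and 29.5% to 32.4%, and the difference of 2.20 percentage points, larger than either SD, did not pass (two-sided exact permutation test, p = 0.171, and 0.343 after adjustment over 2 tests), in a design whose smallest p is 0.0571. With arrays scaled by their median the difference was 1.24 points and reached that smallest p. In the set of 4 arrays it was 3.45 points, and in the set of 3 it was 0.0526 points. With the floor at 0.03 in place of 0.05 the difference was -6.36 percentage points. No value of MS replicate 5 could lie at that floor, given its lowest intensity of 1.53 and its 75th percentile of 49.6.

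The 2-fold differences were then followed rat by rat. Of the 132 lower probes, all 4 MS rats were at least 2-fold below the Control mean in 31, 3 rats in 40, 2 rats in 51 and 1 rat in 10. Of the 53 higher probes, all 4 MS rats were at least 2-fold above it in 9, 3 rats in 24, 2 rats in 10 and 1 rat in 10. MS replicate 2 was 2-fold above the Control mean in 20 of the 53, against 38 to 41 in the other MS rats, and its median difference over them was 0.63 log2, against 1.46 to 1.49. For the 132 lower probes the rats were closer to each other, with 78 to 108 probes each and medians of -1.10 to -1.39 log2. These probes were chosen by the group difference itself, so the counts describe how it was shared among the rats and test nothing.

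**Figure D5:**
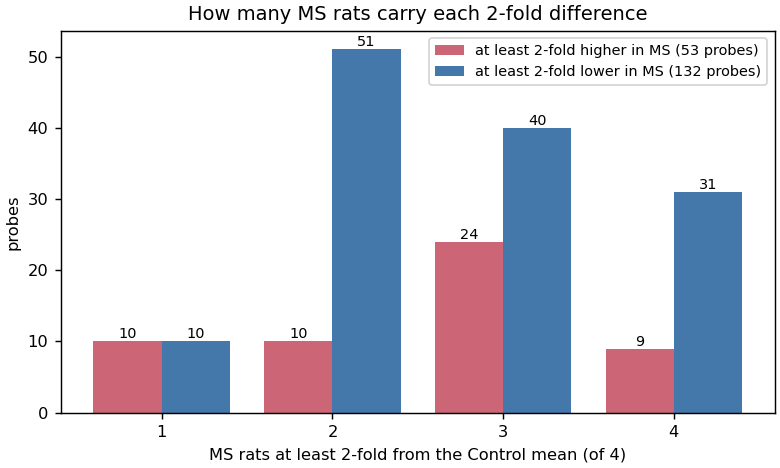
Number of probes with an at least 2-fold difference of group means (53 higher, 132 lower in MS) by how many of the 4 MS rats were themselves at least 2-fold from the Control mean in that direction. All 4 rats did so in 9 of the higher and 31 of the lower probes.

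The 2-fold differences were then recomputed with 1 array left out. Leaving out some single array took 33 of the 53 higher and 93 of the 132 lower probes below 2-fold, while 20 and 39 stayed beyond it with each of the 7 arrays left out in turn. With the array left out that lowered each difference most, the median difference was 0.82 log2 for the higher and -0.87 log2 for the lower probes, and it was under 0.5 log2 in size for 11 and 22 of them. Of those that stayed beyond 2-fold, 14 higher and 37 lower probes also had no overlap between the groups. Without Control replicate 1, 13 of the higher and 38 of the lower ones were lost, without Control replicate 2 it was 3 and 36, and without MS replicate 3 it was 17 and 16. Within the set of 4 arrays, 23 of the 53 and 87 of the 132 were at least 2-fold apart. Within the set of 3 it was 42 and 88, and 13 and 44 in both sets. The direction held in the set of 4 for 49 of the 53 and 130 of the 132, and in the set of 3 for 50 and 119. For the 24 higher and 91 lower probes without overlap, the direction in both sets was fixed by that. As the probes were chosen by the group difference over the same arrays, these counts too are descriptions and test nothing.

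A few probes were far brighter on 1 array than on the other 6. At least 16-fold above each of the other 6 arrays were 8 probes on Control replicate 2, 6 on MS replicate 3, 2 on MS replicate 2, 1 on MS replicate 4, 1 on Control replicate 1 and 0 on the others, while 0 probes were as far below on any array. The other 6 arrays were all at the floor for 3 of those on Control replicate 2, 1 of those on MS replicate 3 and the 1 on Control replicate 1. The remaining probes were above the floor on at least 1 other array. The largest positive difference of group means was of this kind: the probe was at the floor on 6 arrays and at 9.03, an intensity of 39257, on MS replicate 3, which gave a mean difference of 3.34 log2 (limma adjusted p = 0.736). The largest negative difference was too, with a level of 6.76 on Control replicate 2 against -3.68 or lower on the other 6 arrays (log2 -3.87, limma adjusted p = 0.584). At a 2-fold distance from all other arrays, Control replicate 1 had 201 such probes, MS replicate 5 had 142, and the remaining arrays had 7 to 76.

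The test was also run with the DOI rats in the estimate of the spread. When the 4 DOI arrays entered the fit with a mean of their own, so that they added only to the estimate of the spread, 89 of the 11989 probes (0.742%) passed in limma, 8 higher and 81 lower in MS. This fit has 8 residual degrees of freedom against 5. The median SD between rats was 0.20 log2 in DOI (n = 4), 0.27 in MS and 0.23 in Control, and the median standard error was 0.20 against 0.21 in the fit of 7 arrays. The parts of the degrees of freedom and of the spread in the count were not tested. In the fit of 7 arrays the adjusted p of these 89 ran from 0.0585 to 0.209. MS and Control arrays did not overlap in any of the 89, which held 2 probes at least 2-fold higher and 28 at least 2-fold lower. RN_GT_115104, RN_GT_105721 and RN_GT_112643 were among the 89 (limma adjusted p = 0.0179, 0.0179 and 0.0226), and RN_GT_111340 was not (0.0589). Over all settings run, this fit included, the adjusted p ranged from 0.0179 to 0.545 for RN_GT_115104 and RN_GT_105721, from 0.0156 to 0.545 for RN_GT_112643 and from 0.0589 to 0.545 for RN_GT_111340. The count of 89 became 5 without Control replicate 2, 9 without Control replicate 1 or MS replicate 3, 24 without Control replicate 3 or MS replicate 4, 158 without MS replicate 2 and 167 without MS replicate 5. It became 6 with arrays scaled by their median and 13 with quantile normalization.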

How the data were processed

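Prefrontal cortex RNA of 11 rats was hybridized with Cy3 dye to a custom Agilent array, 1 rat per array, per the labels' protocols. The deposited intensity values are linear and above 0. Per the labels, scans were extracted with Agilent Feature Extraction 9.1 and the authors normalized each array linearly; no source used here describes background subtraction or spot flags. Intensities have no read depth, so the number of arrays limits the precision.

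Intensities were scaled to the 75th percentile of each array, raised to a floor of 0.05 and log2-transformed. The 7 Control and MS arrays were fitted in limma 3.58.1 (lmFit and eBayes, R 4.3.3; 5 residual and 2.08 prior degrees of freedom), with two-sided tests and Benjamini-Hochberg adjustment over the 11989 probes. Where a group lies at the floor, a fold is a lower bound. Since no 2 arrays share a rat, the tests rest on variation between rats. They treat rats as independent, which cannot be checked because litters are not labelled. If rats of a group shared a litter, the p-values could be too small.

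At most 2 probes per direction are named: those with the lowest p among probes whose groups do not overlap, or the largest called changes had 10 or more of a direction passed. The comparison, its floor and its alternatives were chosen with earlier results of these data known. Replicate numbers 2 and 3 occur in both groups, but nothing in the labels pairs the rats. Alternatives were other scalings, floors and filters, other variance estimates and weights, blocks, and leaving out each array; the settings that changed the fit of 11 arrays were added once results had been seen. Python 3.11.15 with matplotlib 3.10.9 produced the figures.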

Additional observations from a re-analysis of the deposited data

Results flagged for a closer look

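MS replicate 2 was 2-fold above the Control mean in 20 of the 53 probes that were at least 2-fold higher in MS, whereas the other 3 MS rats were so in 38 to 41. For RN_GT_105721, MS replicate 3 was at -4.04, where the other MS rats were at or just above the floor of -4.32. Both values are listed because the gap to the nearest MS rat was large relative to the range of the 4, among 10 sets of 4 values examined. The usual rate of about 1 in 20 groups by chance applies to neither, since the 53 probes were chosen by the group difference and the gap of RN_GT_105721 is made by the floor. Without the floor its levels in MS replicates 2 to 5 were -4.71, -4.04, -4.49 and -4.32, and MS replicate 3 did not stand apart.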

How the results depend on the processing

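No probe passed in the comparison of 7 arrays, nor with arrays scaled by the median or by quantiles, without scaling, with the floor at 0.1 or absent, with values rounded, with only probes that exceeded the floor on each array, or with a trended, robust variance. Counts above 0 were 4 at an adjusted p under 0.10, 5 with the floor at 0.03, 9 with all probe rows kept, 10 with array weights, 97 within the set of 3 arrays and 89 with all 11 arrays in the fit (6 with the median and 13 with quantile normalization there). Leaving out 1 array gave 0 to 1, and in the fit of 11 arrays 5 without Control replicate 2, 9 without Control replicate 1 or MS replicate 3, 24 without Control replicate 3 or MS replicate 4, 158 without MS replicate 2 and 167 without MS replicate 5. Deviations from the group means correlated across probes at 0.12 for the rats numbered 2 and at -0.10 for those numbered 3. The rats numbered 2 lay in the same set of arrays and those numbered 3 in different sets, so these correlations cannot decide on pairing. With the replicate block 0 probes passed in limma (lowest adjusted p 0.545). Only the numbers 2 and 3 occur in both groups, so that fit has little to estimate from and cannot decide on pairing. Probes without overlap numbered 1578, 1002 without scaling and 1946 to 3106 without 1 array, where fewer arrays overlap less often (3106 without Control replicate 1, 2463 without MS replicate 2). The 185 probes with a 2-fold difference became 2117 without scaling, 296 and 108 with floors of 0.03 and 0.1, 465 with no floor, 110 among probes that exceeded the floor on each array, and 200 to 318 without 1 array (286 without Control replicate 3, 318 without MS replicate 2). The difference in the share at the floor was 1.63 to 3.09 percentage points without 1 array. It was -6.36 points with the floor at 0.03, at which MS replicate 5 had no values. The difference in within-group distance was -0.00214 with the floor at 0.1 and -0.0591 to 0.173 without 1 array. The 4 named probes kept their direction in all settings run. Chosen for arrays that did not overlap, they had to do so wherever arrays were only left out. RN_GT_111340 passed in no setting. The cause of these changes was not tested. Weak signal over background limits what can be said of the dimmer probes, whose values near the floor have no order.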
